A study of Mus musculus with 6 samples.

Results

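The genes described here are the Rab GTPases of the mouse, as far as they were measured in 3 cell populations of the nose and brain. Members were all probe sets whose single platform gene symbol was Rab followed by a number and at most a letter from a to d. There were 134 such probe sets of 45137 on the arrays, 95 on chip A and 39 on chip B, and they stood for 59 of 18193 genes. Rab-like genes and Rab regulators with other symbols were not members. The members were chosen by name, not by their signals.

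Rab proteins are small GTPases that mark the membranes of the secretory and endocytic pathways. In the GTP form each recruits effectors, such as tethers and motors, that move or dock a vesicle. Exchange factors load them with GTP, GTPase-activating proteins switch them off, and a lipid anchor added to the tail holds them on the membrane. In olfactory sensory neurons (OSNs), which detect odours, the traffic runs toward several ends of one cell, since odorant receptors and channels have to reach the dendritic cilia and synaptic vesicles have to be released from axon terminals in the olfactory bulb.

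The first population was mature OSNs sorted by fluorescence, with RNA from about 500000 cells. The second, here the residual epithelium, was the olfactory epithelium without those neurons, with RNA from about 2500000 cells. The third was brain with its olfactory bulbs taken away. All 3 came from OMP-GFP mice, whose Omp coding region is replaced by GFP, so the brain and the residual epithelium carry the same allele as the sorted cells. Age, sex, strain, the number of Omp copies replaced and the number of animals behind each array are not stated in what was used here. The sort rests on the Omp locus, which is active in mature olfactory and vomeronasal neurons, and the residual epithelium is a mixture of every cell that was left.

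Each population was hybridised to 1 chip A and 1 chip B of the Affymetrix mouse expression set 430, so there were 6 arrays and no replicates. No p-value is given, every ratio is a description of a pair of arrays, and the number of arrays limits the precision. Values are probe set signals, a linear intensity in arbitrary units that was scaled to a common trimmed mean on every array. Median signals lay between 194.6 and 257.7. The labels were checked on mature OSN markers: all 8 had an OSN signal 2-fold or more above that of residual epithelium, and their summed signal was 197501 in OSNs, against 5948 in residual epithelium and 5284 in brain. Markers of blood cells were high in residual epithelium: the sum of 6 neutrophil markers was 1294 in OSNs, against 69472 in residual epithelium and 785 in brain, and that of 8 myeloid markers was 1501, 24886 and 4607. Supporting cell and gland markers (7 genes) summed to 17101 in OSNs, against 70824 in residual epithelium and 1330 in brain, and none of them was at the floor in OSNs. Only 4 of the 7 were lower in OSNs than in residual epithelium. The other 3, named here after their values were seen, had the higher signal in the sorted OSNs: Cyp2g1 had 3822 in OSNs, against 2657 in residual epithelium, Sec14l3 had 8815 against 4646, and Cyp1a2 had 424.4 against 334.7.

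Signals below the lower quartile of a chip (70.6 on chip A, 79.9 on chip B), here the floor, were raised to it before ratios were taken within a chip. For a gene to be counted, at least 1 of the signals compared had to reach the chip median (222.1 on chip A, 243.6 on chip B). Where only 1 of them did, the direction of the ratio was fixed by this filter. Genes past 2-fold, which is 1 on the log2 scale, were called. Each gene was represented by the probe set that ranked highest on its chip. Signals of different probe sets are not compared as amounts, since probes differ in how they bind. The highest signals among the representatives, which give no order of amounts, were those of Rab3a (10365) and Rab1a (8543) in OSNs, Rab7 (8814) and Rab1a (5509.7) in residual epithelium, and Rab7 (11880.1) and Rab3a (10988) in brain. The same Rab7 probe set read 1955 on chip A and 8814 on chip B in residual epithelium, so such an order also depends on the chip.

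**Figure D1:**
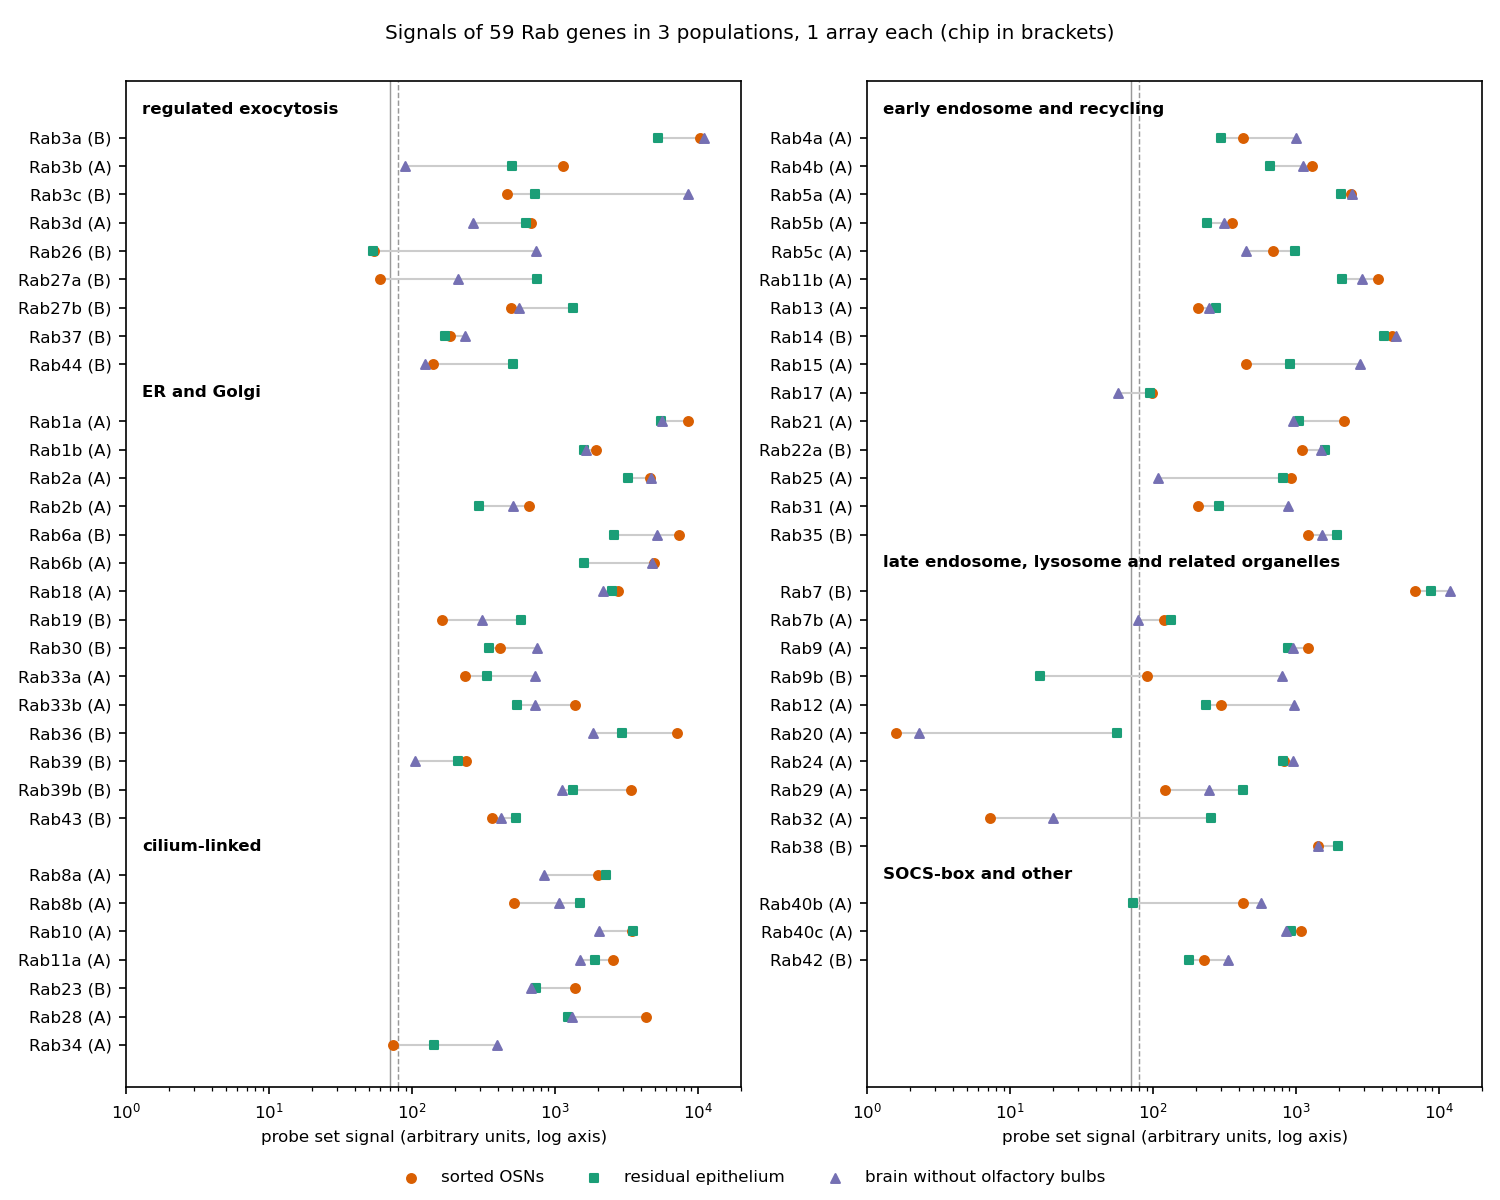
Signals of the representative probe set of each of 59 Rab genes in sorted OSNs (circles), residual epithelium (squares) and brain (triangles), 1 array each, on a log axis in arbitrary units, with the chip in brackets and the floor of chip A (solid line, 70.6) and chip B (dashed line, 79.9). Positions are to be compared within a row only: Rab28 is bright in OSNs (4327) against 1225 in residual epithelium and 1313 in brain, while Rab3c is bright in brain (8535).

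Within the epithelium, 10 of 50 counted Rab genes stood 2-fold or more above residual epithelium in OSNs, against 12.8% of all counted genes, and 8 stood as far below it, against 18.7% of all. The higher genes were Rab21, Rab28, Rab2b, Rab33b, Rab36, Rab39b, Rab3b, Rab40b, Rab6a and Rab6b, and the lower ones Rab15, Rab19, Rab27a, Rab27b, Rab29, Rab32, Rab44 and Rab8b. The median log2 ratio was 0.21 for Rab genes and -0.05 for all genes. Of the lower genes, 5 reached the median on the residual array alone, so that they could only come out lower. Among the 42 Rab genes with both signals at or above the chip median, 9 were higher, against 11.6% of all such genes, and 3 were lower, against 9.97%. A lower signal in a bulk population can mean fewer cells of a type or less RNA per cell, and these cannot be told apart here.

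Against brain, 9 of 51 counted Rab genes passed 2-fold on the higher side in OSNs, close to the 18.5% among all genes, and 11 were lower, close to the 21.0% among all. The median was -0.01 for Rab genes and 0.05 for all genes. With both signals at or above the chip median, 7 of 41 were higher, against 16.4% of all, and 6 were lower, against 11.9%. Between residual epithelium and brain, 9 of 54 were higher in residual epithelium, against 22.5% of all, and 13 were lower, against 18.9%. With both signals at or above the chip median these were 4 of 44, against 16.3%, and 9 of 44, against 13.6%. The shares were thus near those of all genes for OSNs over brain, while more Rab genes than that share were higher for OSNs over residual epithelium and fewer were higher for residual epithelium over brain. No test bears on these differences.

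Ratios of the 100 probe sets placed on both chips differed between chips with an SD of 0.25 log2 units for OSNs over residual epithelium, 0.29 for OSNs over brain and 0.34 for residual epithelium over brain. The means of chip A minus chip B were 0.23, -0.19 and -0.42 in that order. Rab14 and Rab7 were on both chips with the same probe set. Rab14 had 1391, 821.4 and 1318 on chip A in OSNs, residual epithelium and brain, and 4721, 4107 and 4975 on chip B. Its log2 ratio of OSNs over residual epithelium was 0.76 on chip A and 0.20 on chip B. For Rab7 the ratio was 0.15 on chip A and -0.37 on chip B, so a repeat of the same measurement changed its sign. Different probe sets of a Rab gene differed with a pooled SD of 0.50 (26 genes) for OSNs over residual epithelium, 0.57 (27 genes) for OSNs over brain and 0.67 (29 genes) for residual epithelium over brain. Neither SD stands for the spread between animals, and a ratio of 2-fold, 1 log2 unit, is about 2 of the SDs between probe sets or fewer. Of the called genes with several counted sets, all 8 within the epithelium and all 11 for OSNs over brain had every set on the same side of 0, and in 5 and 7 of them every set passed 2-fold. For residual epithelium over brain 7 of 9 had every set on the same side, the exceptions being Rab27b and Rab8a.

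**Figure D2:**
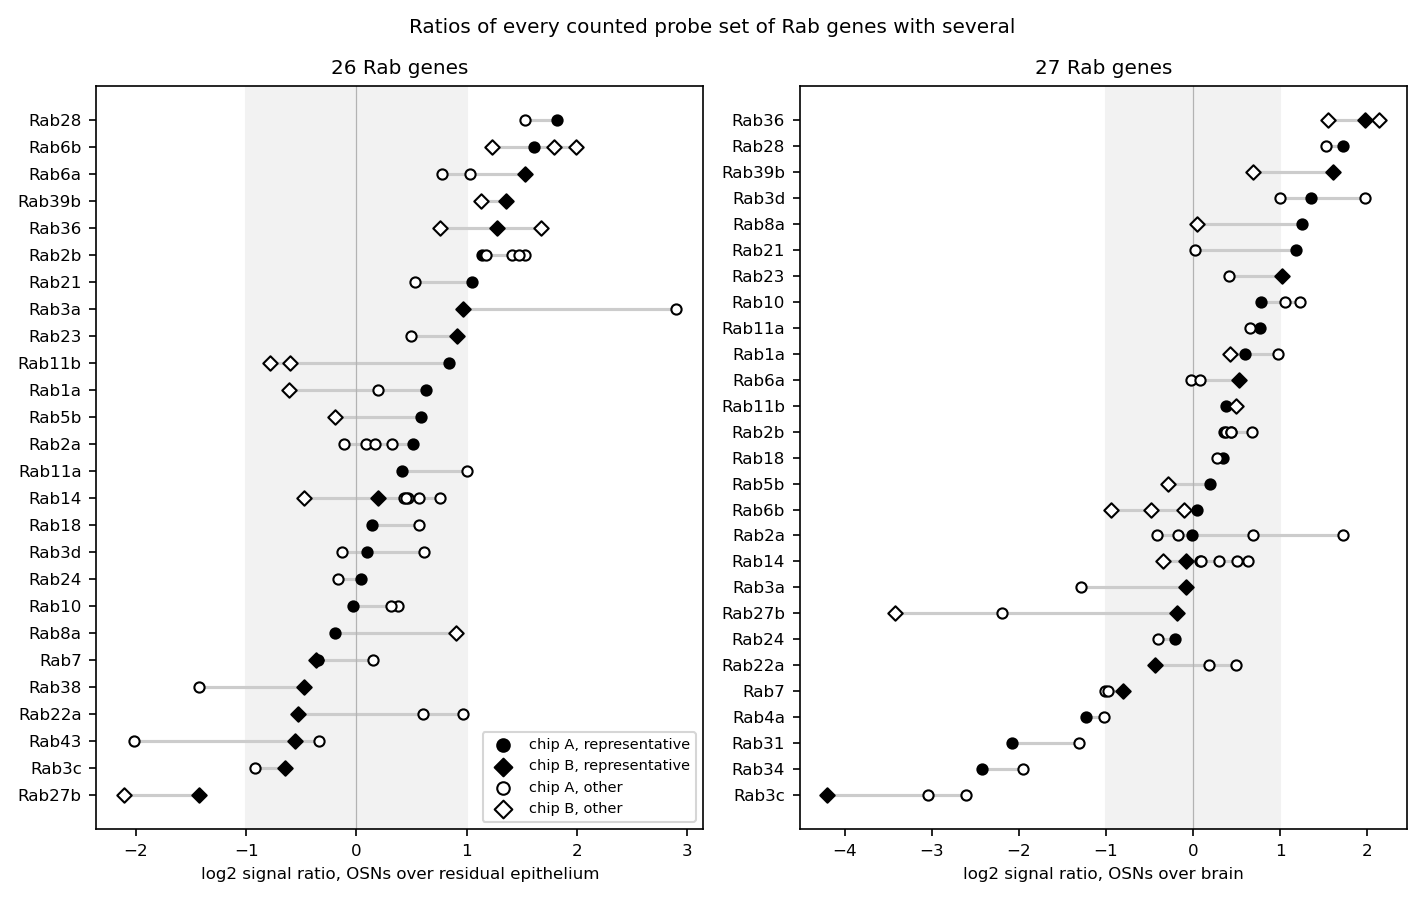
Log2 signal ratio of every counted probe set of the Rab genes with several, 26 genes for OSNs over residual epithelium (left) and 27 for OSNs over brain (right), with circles for chip A, diamonds for chip B, filled symbols for the representative probe set and shading within 2-fold. The 2 counted probe sets of Rab28 lie close together at 1.82 and 1.53 on the left, while those of Rab3a lie at 0.97 and 2.90.

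The Rab genes of regulated exocytosis, which bring secretory and synaptic vesicles to the plasma membrane, were the most divided. Of 7 counted within the epithelium, 1 was higher in OSNs and 3 were lower, beside 12.8% and 18.7% of all genes. Of those lower genes, Rab27a and Rab44 reached the chip median on the residual array alone, so that they could only come out lower. The Rab3 proteins sit on synaptic vesicles and secretory granules. Within this family the log2 ratios of OSNs over brain spanned 7.88 units, from Rab3b at 3.68 to Rab3c at -4.20. The Rab3b set is on chip A and this Rab3c set on chip B, so the span joins ratios of different chips.

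Rab3b had a signal of 1146 in OSNs, against 502.6 in residual epithelium and 89.4 in brain. OSNs were highest, 2.28-fold above residual epithelium and 12.8-fold above brain, where the signal lay just over the floor. Against brain, Rab3b reached the chip median on the OSN array alone, so that it could only come out higher. It has a single probe set, so no second measurement stands beside it. Rab3c, another neuronal Rab3, had 464.8 in OSNs, against 727.1 in residual epithelium and 8535 in brain. The brain signal stood far above both others, with OSNs 18.4-fold below it. On chip A, 2 other counted probe sets of Rab3c gave log2 ratios of -3.04 and -2.61. Rab3d, best known from the granules of exocrine cells, had 675.1 in OSNs, against 628.6 in residual epithelium and 264.8 in brain. Both populations of the nose were above brain, OSNs 2.55-fold and residual epithelium 2.37-fold. Of the 6 supporting cell and gland markers counted for OSNs over brain, 4 were higher and 1 was lower; their part in the Rab3d signal was not tested.

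Rab3a, the main Rab of synaptic vesicles, was measured by 2 probe sets that differ in size. On chip A it had 2728 in OSNs, against 364.8 in residual epithelium and 6690 in brain (log2 ratio 2.90 for OSNs over residual epithelium, -1.29 for OSNs over brain). On chip B, with a set whose suffix marks probes that may bind other transcripts, it had 10365, 5278 and 10988. OSNs were above residual epithelium on both, 7.48-fold on chip A and 1.96-fold on chip B, just short of the threshold. Against brain the chip B ratio was 0.943-fold, and the chip A set was 2.45-fold lower in OSNs. By the representative rule, which took chip B, Rab3a was called only for residual epithelium over brain (2.08-fold lower). The representative sets of Rab27b, Rab6a and Rab38 have the same suffix as this chip B set.

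Rab27a, needed in mice and humans for the movement of melanosomes and the release of lytic granules, had 59.2 in OSNs, against 747.6 in residual epithelium and 208.3 in brain. OSNs were below the floor, so it was at least 9.36-fold lower than in residual epithelium. Of its 3 other probe sets, 2 were below the floor in all populations, and the third had 199.5 in OSNs, against 115.3 in residual epithelium and 165.1 in brain, under the chip median throughout. Rab27b, which acts in granule release of several secretory cells, had 494.9 in OSNs, against 1333 in residual epithelium and 563.6 in brain. A second set on the same chip had 106.3, 457.5 and 1139 in the same order. Both sets put OSNs below residual epithelium (2.69-fold and 4.30-fold), but they order residual epithelium and brain in opposite ways. Against brain OSNs were 1.14-fold lower by the first set and 10.7-fold lower by the second, and a chip A set with 35.3, 167.2 and 325.5 was at least 4.61-fold lower.

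Rab44, an unusually large Rab studied in mast cells and osteoclasts, had 140.7 in OSNs, against 508.2 in residual epithelium and 123.1 in brain. It was 3.61-fold lower in OSNs than in residual epithelium and 4.13-fold higher in residual epithelium than in brain. The neutrophil and myeloid sums given above were also highest in residual epithelium, with Camp and Lcn2 of the neutrophil list and Ptprc and Fcer1g of the myeloid list at or below the floor in OSNs; their part in the Rab27a, Rab27b and Rab44 signals was not tested. Rab26, a Rab of secretory granules, had 53.8 in OSNs, against 53.0 in residual epithelium and 738.8 in brain. Only brain was above the floor, so Rab26 was at least 9.25-fold lower in OSNs and in residual epithelium. Rab26 was counted through the brain array alone and could only come out lower in both. Rab37, a Rab of mast cell granules, stayed below the chip median everywhere (184.4 in OSNs, against 169.7 in residual epithelium and 234.6 in brain).

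The Rab genes of the endoplasmic reticulum and Golgi, which run the early secretory pathway, held most of the calls toward OSNs within the epithelium. Of 14 counted, 6 were higher in OSNs and 1 was lower, beside 12.8% and 18.7% of all genes, and their log2 ratios had a median of 0.57 beside -0.05 for all genes. Against brain 2 were higher and 1 was lower, beside 18.5% and 21.0% of all genes, with a median of 0.29.

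Rab6a, which directs traffic out of and back to the Golgi, had 7394 in OSNs, against 2568 in residual epithelium and 5129 in brain. OSNs stood 2.88-fold above residual epithelium, and its other sets gave 2.04-fold and 1.72-fold. Rab6b, its relative in neurons, had 4905 in OSNs, against 1604 in residual epithelium and 4740 in brain. By this representative set OSNs and brain were alike within 1.03-fold and both were about 3-fold above residual epithelium (3.06-fold and 2.96-fold). Its other counted sets had OSNs below brain, by 1.92-fold, 1.39-fold and 1.08-fold. All 4 counted sets of Rab6b were past 2-fold for OSNs over residual epithelium, with log2 ratios from 1.23 to 1.99. Rab2b, which acts between Golgi and endoplasmic reticulum, had 653.0 in OSNs, against 295.4 in residual epithelium and 508.4 in brain. Its 5 probe sets agree closely, with log2 ratios from 1.14 to 1.53 for OSNs over residual epithelium. Its relative Rab2a had 4645 in OSNs, against 3257 in residual epithelium and 4681 in brain, within 2-fold of both.

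Rab36, a less studied Rab placed at the Golgi and late endosomes, had 7169 in OSNs, against 2959 in residual epithelium and 1831 in brain. OSNs were highest, 2.42-fold above residual epithelium and 3.92-fold above brain. Its other sets also had OSNs highest: one had 2389.9, 744.1 and 540.5 in the same order, and another had 4327, 2560.1 and 1479.9, which is 1.69-fold for OSNs over residual epithelium. Rab39b is X-linked, and its human counterpart is mutated in a form of intellectual disability with early parkinsonism. It had 3417 in OSNs, against 1328 in residual epithelium and 1120.4 in brain, 2.57-fold and 3.05-fold higher in OSNs. Its second set had 1758, 800.8 and 1090.1, which is 2.20-fold over residual epithelium and 1.61-fold over brain. Its namesake Rab39 had 238.8, 208.7 and 104.2 and was counted nowhere.

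Rab33b, a Golgi Rab that binds the autophagy protein Atg16l1, had 1370.2 in OSNs, against 539.9 in residual epithelium and 727.8 in brain. OSNs were 2.54-fold above residual epithelium and 1.88-fold above brain. Rab33a, its relative on axonal vesicles of neurons, went the other way with 233.8 in OSNs, against 332.5 in residual epithelium and 723.7 in brain, 3.10-fold lower in OSNs than in brain. Rab19 had 161.9 in OSNs, against 575.2 in residual epithelium and 309.5 in brain, 3.55-fold lower in OSNs than in residual epithelium. Within the epithelium, Rab19 reached the chip median on the residual array alone, so that it could only come out lower. Rab30, a Golgi Rab, had 413.1, 347.9 and 746.9 in the same order and was called only for residual epithelium over brain (2.15-fold lower).

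The remaining members of this group were within 2-fold in all 3 comparisons by their representative sets. Rab1a, which carries cargo from the endoplasmic reticulum to the Golgi, had 8543 in OSNs, against 5509.7 in residual epithelium and 5637 in brain. Rab1b had 1947, 1591 and 1636, Rab18, known from lipid droplets, had 2752, 2506 and 2178, and Rab43 had 359.8, 529.8 and 418.4. Another Rab43 set, with 111.0, 450.0 and 168.0, was 4.05-fold lower in OSNs than in residual epithelium.

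Cilium-linked Rab genes were chosen for roles in building cilia or loading their membrane. Of 6 counted within the epithelium, Rab28 was higher in OSNs and Rab8b was lower, beside 12.8% and 18.7% of all genes. Of 7 counted against brain, Rab23, Rab28 and Rab8a were higher in OSNs and Rab34 and Rab8b were lower. Rab34 reached the chip median on the brain array alone, so that it could only come out lower. Over all genes the shares against brain were 18.5% higher and 21.0% lower. The group did not move as one.

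Rab28, whose human counterpart is mutated in a cone-rod dystrophy and which travels in cilia of Caenorhabditis elegans, had 4327 in OSNs, against 1225 in residual epithelium and 1313 in brain. OSNs stood 3.53-fold above residual epithelium and 3.30-fold above brain, and the other populations were within 1.07-fold of each other. Its second set had 1093.8 in OSNs, against 379.5 in residual epithelium and 379.9 in brain, which gives 2.88-fold for both. Rab23, a ciliary Rab that restrains Hedgehog signalling, had 1387 in OSNs, against 738.1 in residual epithelium and 684.6 in brain. The OSN signal was 1.88-fold above residual epithelium and 2.03-fold above brain, near the threshold, and a second counted set gave 1.41-fold and 1.33-fold.

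Rab8a, the Rab that the exchange factor Rabin8 activates at the ciliary base, had 2009 in OSNs, against 2289.6 in residual epithelium and 843.0 in brain. Both populations of the nose were above brain (OSNs 2.38-fold, residual epithelium 2.72-fold), but a second counted set on chip B had 461.6, 248.0 and 444.5 and did not show this. Rab8b, its close relative, had 513.3 in OSNs, against 1484 in residual epithelium and 1062 in brain, 2.89-fold and 2.07-fold lower in OSNs. Rab10, which acts in exocytosis and in neuronal cilia, had 3469.9 in OSNs, against 3535 in residual epithelium and 2016 in brain. Rab11a, the recycling endosome Rab that acts upstream of Rab8, had 2538 in OSNs, against 1914 in residual epithelium and 1488 in brain. Neither was called, although the other 2 sets of Rab10 stood 2.34-fold and 2.07-fold above brain in OSNs, and a second set of Rab11a had 1973.5, 984.7 and 1256, at the threshold for OSNs over residual epithelium.

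Rab34, which acts early in the formation of some cilia, had 73.5 in OSNs, against 143.5 in residual epithelium and 392.5 in brain. It was 5.34-fold lower in OSNs than in brain and was not counted within the epithelium. Its other set had 38.2, 80.3 and 273.7. There OSNs were below the floor and residual epithelium just above it, and only the ratios to brain were counted.

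Early endosome and recycling Rab genes were mostly even within the epithelium. Of 14 counted within the epithelium, 12 were within 2-fold, Rab21 was higher in OSNs and Rab15 was lower, beside 12.8% and 18.7% of all genes. For OSNs over brain 2 of 14 were higher and 3 were lower, beside 18.5% and 21.0% of all genes. Rab25, one of the higher, passed the filter through the OSN array alone, and Rab31, one of the lower, through the brain array alone. Their direction was thus fixed. For residual epithelium over brain 2 of 14 were higher and 3 lower, beside 22.5% and 18.9%, and Rab25 again could only come out higher. Rab21, which moves integrins through early endosomes, had 2181 in OSNs, against 1056 in residual epithelium and 960.2 in brain. It was 2.07-fold and 2.27-fold higher in OSNs, but the second set had 429.0, 297.3 and 423.9 (1.44-fold and 1.01-fold). Rab4b, of the fast recycling route, lay just under the threshold with 1288 in OSNs, against 655.2 in residual epithelium and 1123 in brain, 1.97-fold for OSNs over residual epithelium.

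Rab25, a relative of Rab11 found in epithelial cells, had 920.5 in OSNs, against 808.5 in residual epithelium and 108.0 in brain. OSNs were 8.52-fold and residual epithelium 7.49-fold above brain, with OSNs and residual epithelium within 1.14-fold. The brain signal was below the chip median, so that both ratios to brain could only come out higher. Cyp2g1, Sec14l3 and Cyp1a2, given above, were also higher in OSNs than in brain (37.2-fold, 16.6-fold and at least 6.01-fold). From the same list Bpifa1 was higher too (at least 48.6-fold), Bpifb9b was within 2-fold, Notch2 was 2.62-fold lower and Lyz1 was not counted. The part of supporting cells in the Rab25 signal was not tested. Rab15, a neuronal Rab of the recycling route, had 449.4 in OSNs, against 905.4 in residual epithelium and 2795 in brain. OSNs were lowest, 2.01-fold below residual epithelium and 6.22-fold below brain.

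Rab31, an endosome Rab that glial cells also use, had 206.7 in OSNs, against 290.4 in residual epithelium and 875.4 in brain. It was 4.24-fold lower in OSNs than in brain, where it could only come out lower, since the OSN signal was below the chip median. Rab4a had 428.2, 301.0 and 1001.3, 2.34-fold lower in OSNs than in brain. The brain glia markers (5 of 6 on the arrays) summed to 946 in OSNs, against 4022 in residual epithelium and 24044 in brain, with Mog at or below the floor in OSNs and residual epithelium, and the brain neuron markers (5 of 6) to 1755, 952 and 29106; their part in these ratios was not tested. Rab5c, an early endosome Rab, had 695.5 in OSNs, against 980.2 in residual epithelium and 448.8 in brain and was called only for residual epithelium over brain (2.18-fold higher). Rab5a (2433, 2053 and 2478), Rab5b (356.4, 237.1 and 312.7), Rab11b (3753, 2101 and 2884), Rab13 (207.5, 276.8 and 245.8), Rab22a (1107, 1601 and 1501) and Rab35 (1216, 1925 and 1529) were within 2-fold in all 3 comparisons by their representative sets, in the order OSNs, residual epithelium and brain. A chip B set of Rab11b, with 700.5, 1199 and 499.3, was 2.40-fold higher in residual epithelium than in brain and had a log2 ratio of -0.78 for OSNs over residual epithelium, against 0.84 by the representative set. Rab17, an epithelial Rab, had 98.1, 94.7 and 57.3 and was counted nowhere.

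Among Rab genes of late endosomes, lysosomes and related organelles none was called higher in OSNs, of 7 counted in each comparison, where the shares of all genes were 12.8% and 18.5%. Rab36, also placed at late endosomes, was grouped with the Golgi genes and was called higher in OSNs in both comparisons. Of 7 counted within the epithelium, Rab29 and Rab32 were lower, beside 18.7% of all genes. Of 7 counted against brain, Rab12, Rab29 and Rab9b were lower, beside 21.0% of all genes. Of the arrays compared, only residual epithelium reached the chip median for Rab29 and Rab32, and only brain for Rab29 and Rab9b. Those genes could only come out lower. Rab29, which binds the kinase Lrrk2, had 120.7 in OSNs, against 428.2 in residual epithelium and 246.3 in brain, 3.55-fold and 2.04-fold lower in OSNs. Rab32, known from melanosomes and from phagosomes of myeloid cells, had 7.2 in OSNs, against 254.9 in residual epithelium and 20.1 in brain. Only residual epithelium was above the floor, so OSNs were at least 3.61-fold lower. The myeloid sum given above was highest in residual epithelium too; its part in the Rab32 signal was not tested.

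Rab12, which acts between recycling endosomes and lysosomes, had 298.6 in OSNs, against 236.1 in residual epithelium and 961.8 in brain, 3.22-fold lower in OSNs than in brain. Rab9b had 91.0 in OSNs, against 16.3 in residual epithelium and 793.4 in brain, 8.72-fold lower in OSNs than in brain. Its relative Rab9, which returns receptors from late endosomes to the Golgi, was even, with 1214 in OSNs, against 873.6 in residual epithelium and 951.5 in brain. Rab7, the Rab of late endosomes and lysosomes, had 6806 in OSNs, against 8814 in residual epithelium and 11880.1 in brain (chip B), within 2-fold of both. Its chip A sets gave 2.01-fold and 1.98-fold lower signals in OSNs than in brain.

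Rab24, linked to autophagy, had 826.0 in OSNs, against 805.6 in residual epithelium and 956.0 in brain. Rab38, a relative of Rab32, had 1420.2, 1981 and 1434 by its representative set, all within 2-fold. Its chip A set had 139.1, 375.3 and 92.9, which is 2.70-fold lower in OSNs than in residual epithelium and 4.04-fold higher in residual epithelium than in brain. Rab7b (119.9, 132.6 and 78.5) and Rab20 (1.6, 56.2 and 2.3) were counted nowhere.

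Rab40b and Rab40c carry a SOCS box that joins them to ubiquitin ligases. Rab40b had 429.1 in OSNs, against 72.6 in residual epithelium and 566.8 in brain. Residual epithelium stood alone near the floor: OSNs were 5.91-fold above it, and brain was 7.81-fold above it. This was the largest ratio of OSNs over residual epithelium among the representative sets, it passed the filter through the OSN array only, and the second set of Rab40b was below the floor everywhere. Rab40c had 1077 in OSNs, against 928.9 in residual epithelium and 856.4 in brain. Rab42, grouped with them for want of a settled role, had 227.1, 177.3 and 334.4.

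**Figure D3:**
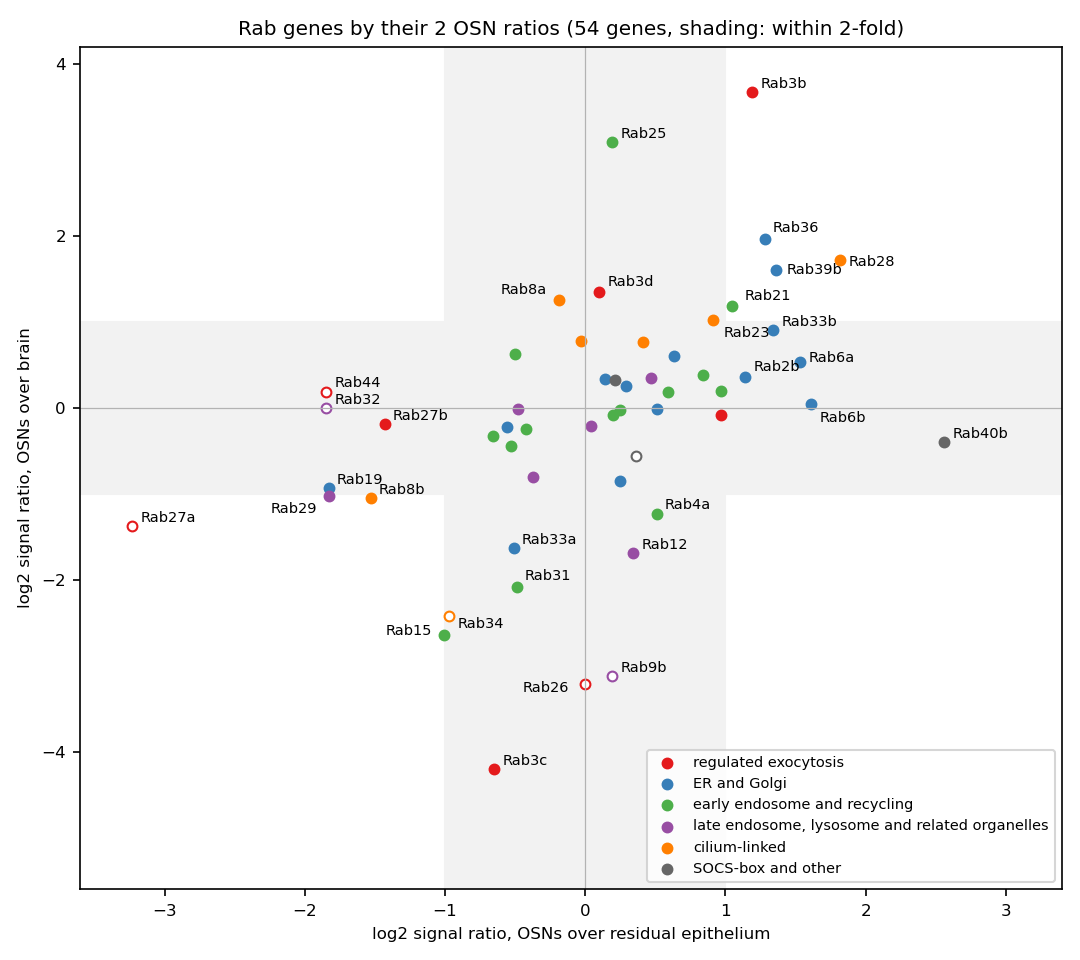
Log2 signal ratio of OSNs over residual epithelium (horizontal) and of OSNs over brain (vertical) for the 54 Rab genes counted in at least 1 of them, coloured by role, open where only 1 of the ratios was counted, with shading within 2-fold. Both axes use the same OSN array, so the slope of the cloud is not a result; Rab3b (1.19 and 3.68) and Rab3c (-0.65 and -4.20) mark its vertical ends.

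Relatives with the same number often differed, while others ran together. Rab6a and Rab6b had log2 ratios of 1.53 and 1.61 for OSNs over residual epithelium, and Rab1a and Rab1b had 0.63 and 0.29. In contrast Rab33b and Rab33a had 1.34 and -0.51, and Rab8a and Rab8b had -0.19 and -1.53. For OSNs over brain, Rab9 and Rab9b had 0.35 and -3.12, and Rab4b and Rab4a had 0.20 and -1.23.

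Promoter sequence bears on members that stood highest in OSNs against both other populations, Rab28, Rab36, Rab39b, Rab3b and Rab21, whose ratios share the OSN array. RefSeq promoters (GRCm38.p6) were matched by symbol for 48 of the 59 genes, with 60 promoters in all, and the 250 bases before the start were searched on both strands. There was no entry for Rab36. The other 4 are shown 5′ to 3′ to let their make-up be compared. Capitals mark TGACG (the core of a cAMP response element), GGGCGG (the GC box of SP factors), TAATTA (a homeodomain core), CACGTG (an E-box), GTTGCC (a stretch of the X-box that RFX factors bind) and the palindromic site of EBF factors.
Rab28, chr5:41708180-41708429, - strand: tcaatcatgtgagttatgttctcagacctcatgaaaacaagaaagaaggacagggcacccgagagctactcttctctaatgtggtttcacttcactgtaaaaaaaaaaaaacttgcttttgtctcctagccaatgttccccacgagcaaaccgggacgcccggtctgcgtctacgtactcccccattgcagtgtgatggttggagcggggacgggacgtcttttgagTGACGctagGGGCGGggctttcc
Rab39b, chrX:75578232-75578481, - strand: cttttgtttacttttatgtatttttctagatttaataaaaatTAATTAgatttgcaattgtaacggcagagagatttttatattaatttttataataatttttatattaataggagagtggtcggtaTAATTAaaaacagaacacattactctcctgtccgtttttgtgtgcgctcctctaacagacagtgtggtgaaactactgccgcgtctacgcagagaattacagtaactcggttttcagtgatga
Rab3b, chr4:108878820-108879069, + strand: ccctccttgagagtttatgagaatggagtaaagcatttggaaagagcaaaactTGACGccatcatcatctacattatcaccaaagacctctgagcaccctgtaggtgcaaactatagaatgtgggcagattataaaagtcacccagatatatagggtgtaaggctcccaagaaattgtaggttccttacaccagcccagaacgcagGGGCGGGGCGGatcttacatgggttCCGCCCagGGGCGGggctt
Rab21, chr10:115315592-115315841, - strand: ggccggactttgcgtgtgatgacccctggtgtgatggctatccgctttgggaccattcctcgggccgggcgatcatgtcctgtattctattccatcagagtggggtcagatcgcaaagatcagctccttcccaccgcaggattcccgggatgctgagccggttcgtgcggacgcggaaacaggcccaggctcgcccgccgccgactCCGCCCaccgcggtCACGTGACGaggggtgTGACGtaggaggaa

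No motif was in all 4 promoters. Rab28 holds 1 TGACG and 1 GC box, both close to the start. Rab3b holds 4 GC boxes, 2 of them overlapping, and 1 TGACG. Rab21 holds 2 TGACG, 1 GC box and 1 E-box that overlaps the first TGACG. Rab39b holds none of these but 2 TAATTA, and its stretch has 31.6% G and C, against a median of 60.2% over the Rab promoters and 59.2% over the promoters of counted genes.

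Over the whole family, the EBF site was in 0 of 60 Rab promoters, against 1.0% of the 13764 promoters of genes counted in any comparison and 0.8% of all 32851. GTTGCC was in 3 (5.0%), those of Rab15, Rab1b and Rab40b, against 10.9% and 10.4%. TAATTA was in 1, against 2.6% and 4.8%. TGACG was in 24 of 60, against 3435 of 13764 and 5836 of 32851 (17.8%). The full palindromic cAMP response element was in 2, against 2.4% and 1.5%, and the left arm of the REST element was in 0, against 0.3% of both sets. GGGCGG was in 40 (66.7%), against 54.5% and 32.7%, and CACGTG was in 5 (8.3%), against 7.8% and 6.0%. These are letter matches in a window before the start and describe neither a bound site nor a cause.

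Genes that act on or with Rab proteins were taken from 8 lists with 149 genes, of which 142 were on the arrays. Of 128 counted within the epithelium, 20 were called higher in OSNs (15.6%) and 12 lower (9.38%), and the median log2 ratio was 0.26, beside 12.8%, 18.7% and -0.05 for all genes. Against brain, 25 of 127 were higher (19.7%) and 20 were lower (15.7%), beside 18.5% and 21.0% of all genes, with a median of 0.14. The counts of each list below are to be read against these shares of all genes.

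Effectors of Rab3 and Rab27, which dock granules and synaptic vesicles, had 4 of 9 genes higher in OSNs within the epithelium and none lower (median 0.65). Of the higher genes, 2 (Sytl2 and Sytl1) reached the chip median on the OSN array alone and could only come out higher. Sytl2, a synaptotagmin-like Rab27 effector, had 1196 in OSNs, against 133.5 in residual epithelium and 517.0 in brain, 8.96-fold higher than in residual epithelium. Sytl1 had 273.9 in OSNs and was below the floor in the other populations (at least 3.88-fold). These are chip A sets, whereas the lower signals of Rab27a and Rab27b in OSNs given above come from chip B, and on chip A neither Rab27 gene had a counted ratio within the epithelium. At the low end, Unc13d had 424.4, 577.0 and 455.5 and Exph5 had 724.7, 1032 and 1179, within 2-fold. Against brain 2 of 10 were higher and 3 were lower.

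Endosome and recycling effectors were higher in OSNs than in residual epithelium for 7 of 21 and lower for 1 (median 0.89). Rab11fip5, which links Rab11 to recycling vesicles, had 10093 in OSNs, against 1014 in residual epithelium and 4181 in brain, 9.95-fold above residual epithelium. Myo5b, the myosin motor that Rab11 vesicles ride on, had 1585 in OSNs, against 512.5 in residual epithelium and 652.1 in brain, 3.09-fold above residual epithelium. Both are chip B sets; the representative sets of Rab11a and Rab11b, on chip A, were within 2-fold, and the second Rab11a set was at the threshold. At the other end Rabep2 had 2056, 3888 and 1460.0, and Micall2 had 65.4, 286.5 and 104.8, at least 3.59-fold lower in OSNs than in residual epithelium.

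Rab-like and cilium partner genes were higher in OSNs than in residual epithelium for 4 of 10 and lower for none (median 0.77), and than in brain for 6 of 11 with 1 lower (median 1.10). Pde6d, which shuttles lipid-anchored proteins to cilia, had 5656 in OSNs, against 936.4 in residual epithelium and 429.7 in brain, 6.04-fold above residual epithelium. Rabl2, a Rab-like GTPase that lets transport trains enter the cilium, had 6818 in OSNs, against 2098 in residual epithelium and 1786 in brain, 3.25-fold above residual epithelium. Trappc10 (1174, 1133 and 1271) and Rabl6 (469.2, 456.4 and 851.0) had the lowest ratios of OSNs over residual epithelium in this list and were within 2-fold.

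Exchange factors were higher in OSNs than in residual epithelium for none of 30 and lower for 7 (median near 0.00), beside 12.8% and 18.7% of all genes. Of the lower genes, 4 (Rin3, Als2cl, Dennd2c and Dennd1c) reached the chip median on the residual array alone and could only come out lower. Rab3ip, also called Rabin8, led the list with 3947 in OSNs, against 2099 in residual epithelium and 1102 in brain, 1.88-fold and 3.58-fold. Madd, an exchange factor of Rab3, had 5073, 2909 and 4004. Rin3, a Rab5 exchange factor, had 42.6 in OSNs, against 1041 in residual epithelium and 105.6 in brain, at least 13.0-fold lower in OSNs than in residual epithelium. Dennd1c had 212.5, 1459.6 and 35.3, 6.87-fold lower. Both had their highest signal in residual epithelium, where the blood cell sums given above were also highest; the part of those cells was not tested. Against brain 7 of 28 were higher and 4 were lower.

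GTPase-activating proteins were within 2-fold for 27 of 32 within the epithelium, with 3 higher in OSNs and 2 lower (median 0.16). Rabgap1l had 8685 in OSNs, against 1218 in residual epithelium and 992.8 in brain, 7.13-fold above residual epithelium, although its probe sets ranged from 0.85 to 2.83 on the log2 scale. Tbc1d9 had 1824 in OSNs, against 320.3 in residual epithelium and 828.5 in brain, 5.69-fold above residual epithelium. Tbc1d2b was 3.95-fold and Tbc1d4, a regulator of glucose transporter traffic, 4.16-fold lower, but another Tbc1d4 set had a log2 ratio of 2.14 in the opposite direction.

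Few genes of the general machinery were called within the epithelium, where 12.8% of all genes were higher and 18.7% lower. The exocyst, which tethers vesicles to the plasma membrane, had 8 of 9 genes within 2-fold of residual epithelium and all 9 within 2-fold of brain. Exoc6b was highest (4213 in OSNs, against 2073 in residual epithelium and 2208 in brain, 2.03-fold), followed by Exoc4 (1371, 1073 and 1104), and Exoc5 (2856, 4340.5 and 2792) and Exoc8 (467.8, 523.0 and 654.9) were lowest. Golgi effectors were within 2-fold for 8 of 10, with Gorasp2 2.14-fold above residual epithelium in OSNs and Kif20a, a kinesin also needed for cell division, at least 4.69-fold lower. Against brain 2 of 9 Golgi effectors were lower and none higher. Golga2 and Bicd2 had log2 ratios of 0.84 and -0.88. Prenylation and recycling factors were within 2-fold for 6 of 7, and 1 of 7 was lower in OSNs than in brain. Chml, an escort protein for newly made Rab proteins, was the exception, with 150.5 in OSNs, against 942.8 in residual epithelium and 397.3 in brain, 6.26-fold lower. Rabac1 (4021, 2276 and 2925) and Rabggtb (1055, 785.9 and 756.1) had the highest ratios of that list, and Gdi2 (4248, 4997 and 3210.3) the second lowest.

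**Figure D4:**
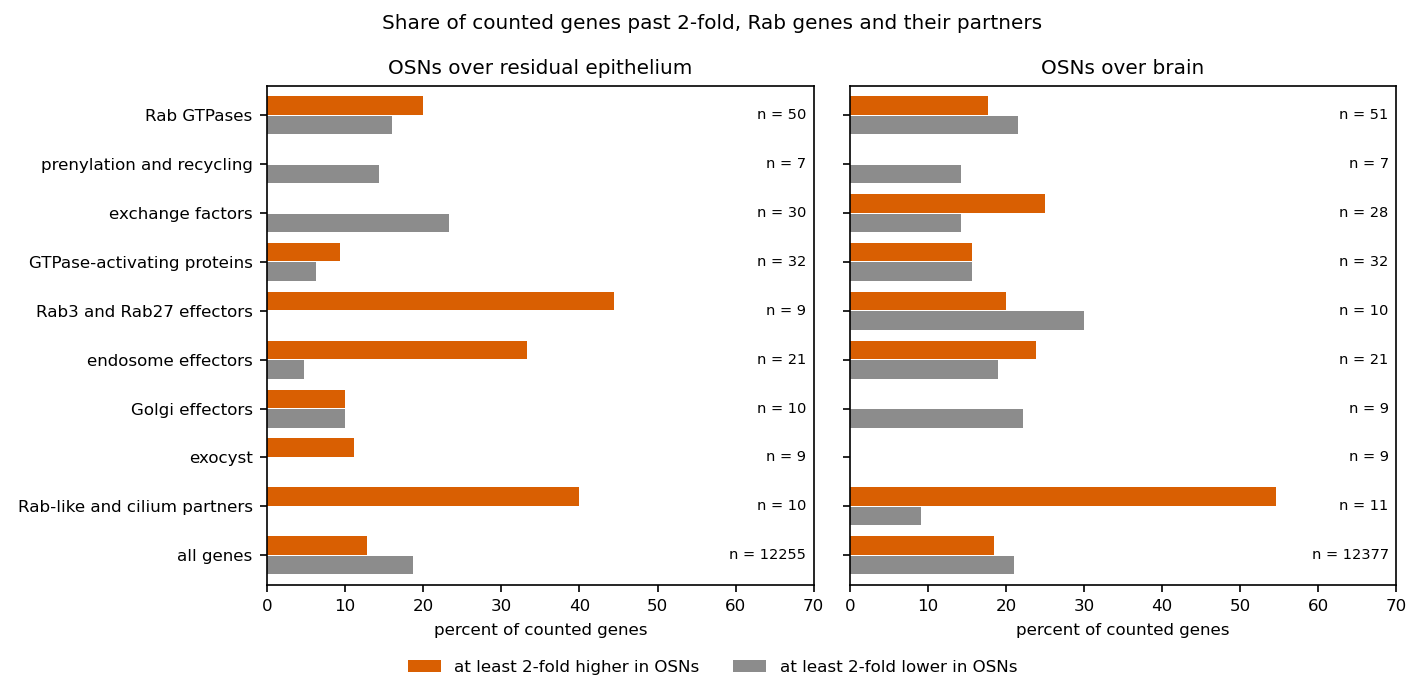
Percent of counted genes at least 2-fold higher (orange) or lower (grey) in OSNs, for Rab genes, 8 lists of their partners and all genes, against residual epithelium (left) and brain (right), with the number of counted genes beside each pair of bars. Rab-like and cilium partners have 4 of 10 and 6 of 11 genes on the higher side, and the exocyst has 1 of 9 and 0 of 9.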

How the data were processed

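RNA of 3 populations was measured on 2 chips, 1 array each. The deposited values are probe set intensities on a linear scale; per the submitters' processing notes they were made with MAS5, named for 5 of 6 arrays without a version, and the mean between percentiles 2 and 98 was 499.6 to 499.9 on every array. Background correction, scaling target and detection calls are not stated in what was used here. All arrays thus share a mean, so amounts per cell cannot be compared.

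Of 45137 probe sets (64 controls per chip left out), 35041 had a single symbol, 936 several and 9160 none. Symbols were updated through Entrez identifiers with the GRCm38.p6 RefSeq table. The floor was percentile 25 and the filter percentile 50 of the 3 arrays of a chip, and ratios were log2 within a chip. Calls were made at 2-fold. With 1 array per population and chip no test was possible. The steps were tested on simulated data.

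Named genes were every Rab gene called in any comparison, every cilium-linked member, the brightest 2 per population, and the 2 highest and 2 lowest counted ratios of OSNs over residual epithelium in each partner list. Members, lists and rules were chosen with earlier results of these data known. Marker lists served only for checks; erythroid markers summed to 127 in OSNs, against 10891 in residual epithelium and 153 in brain, basal cell markers to 249, 1799 and 90, and immature OSN markers to 3675, 19324 and 4701. Alternatives were other floors, a pseudocount, other filters, 3 other scalings, other probe set rules, a 3-fold threshold and updated symbols. Software was Python 3.11.15 with matplotlib 3.10.9 for figures, pandas 2.3.3 for tables and numpy 2.4.6.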

Additional observations from a re-analysis of the deposited data

How the results depend on the processing

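Of 114 recomputed counts and medians of Rab genes, 105 stayed within 1.5 times the reported count or within the SD between chips of the reported median. With a 3-fold threshold, 3 Rab genes were higher and 5 lower for OSNs over residual epithelium, 5 were higher for OSNs over brain, and 5 were higher and 8 lower for residual epithelium over brain. With the signal filter at percentile 75, 4 were lower for OSNs over residual epithelium. Requiring both signals at or above the chip median, an alternative chosen after seeing the data, left 3 lower for OSNs over residual epithelium, 6 lower for OSNs over brain and 4 higher for residual epithelium over brain; it counts fewer genes by construction. Over all genes, 2292 were lower for OSNs over residual epithelium, 1385 with the filter at percentile 75 and 957 with both signals at or above the chip median. Over all genes, 40.7% of calls were higher for OSNs over residual epithelium and 53.7% with both signals at or above the chip median, and for OSNs over brain 46.8% and 57.9%. The median of all genes for residual epithelium over brain was 0.12, and -0.09 with arrays scaled on the probe sets shared by both chips; for OSNs over brain it was 0.05 and -0.16.

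Of 60 called ratios of single Rab genes, 45 stayed past 2-fold in every alternative that gave a value. Part of this was fixed in advance. Other filters, the rule on both signals and updated symbols cannot change a ratio, only whether it is counted. Other probe set rules cannot change the ratio of a gene with a single probe set, and may only drop it. The 15 exceptions included Rab21 over residual epithelium (0.79 to 1.10) and over brain (0.60 to 1.18), and Rab36 over residual epithelium (0.98 to 1.45). Among the cilium-linked calls for OSNs over brain they included Rab23 (0.71 to 1.04), Rab8a (0.65 to 1.25) and Rab8b (-1.22 to -0.96). Rab29 over brain (-1.20 to -0.72) and Rab8a for residual epithelium over brain (0.30 to 1.46) were also among them. Rab27b for residual epithelium over brain reversed, to -0.96 with the median over probe sets and -1.32 with only plain probe sets, since other probe sets then set its value. No paired analysis was possible because each population had 1 array per chip. Signals at the floor give bounds only.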
